A study of Mus musculus with 3 samples.

Results

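The genes described here are 10 imprinted genes of fetal growth, *H19*, *Igf2*, *Dlk1*, *Meg3*, *Mest*, *Peg3*, *Cdkn1c*, *Plagl1*, *Grb10* and *Igf2r*. They were chosen by name from the 27,998 genes of the count table, and all 10 were found. Together they held 1,045,520 UMIs, or 0.414% of all UMIs, where a UMI is a unique molecular identifier that marks 1 captured RNA molecule. The cells came from an experiment on blood formation. Endothelial cells of the heart were sorted from adult female mice with a GFP reporter as GFP+CD31+VE-Cad+ cells without CD41, CD45, PDGFRA or PDGFRB. They were studied fresh (0 h) and after culture in co-aggregates with PDGFRA+ stromal cells (PSCs) of the *Mesp1* lineage, which had been taken from the aorta-gonad-mesonephros region of E11.5 embryos, for 24, 48, 72 or 96 h in medium with cytokines. After culture, cells were sorted from the co-aggregates as GFP+CD31+VE-Cad+ cells without PDGFRA. The stroma carried a DsRed reporter of the *Mesp1* lineage, and GFP marks cells of the adult donor and not a cell type. Cells of all times were combined in 3 pools, and every group below is a cluster that the authors drew from the same counts, so differences between clusters are descriptions and not tests.

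Imprinted genes are expressed from 1 parental allele in many tissues. Several of them form a co-regulated network that is active in fetal and neonatal growth and is switched down after birth, so that adult tissues keep low levels. *Igf2* encodes a growth factor that signals through the IGF1 and insulin receptors, *Igf2r* the receptor that clears it, and *H19* a non-coding RNA that shares enhancers with *Igf2*. *Cdkn1c* encodes the cell cycle inhibitor p57 and *Grb10* an adaptor that dampens insulin and IGF signalling. *Plagl1* and *Peg3* encode zinc finger proteins, *Mest* a protein of the hydrolase family, *Dlk1* a transmembrane protein related to Notch ligands and *Meg3* a non-coding RNA from the same domain. UMI counts do not separate the parental alleles, so no value below bears on imprinting itself.

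By GENCODE M21 on GRCm38, 3 members lie in the distal part of chromosome 7. *H19* (142575529 to 142578143) and *Igf2* (142650766 to 142666816) are 72.6 kb apart on the minus strand, and *Cdkn1c* (143458339 to 143461050) follows 792 kb further. *Peg3* is on the same chromosome at 6703892 to 6730431. *Dlk1* (109452823 to 109463336) and *Meg3* (109541001 to 109571726) are 77.7 kb apart on chromosome 12. *Mest* (30723547 to 30748465) is on chromosome 6, *Plagl1* (13060504 to 13131694) on chromosome 10, *Grb10* (11930508 to 12038683) on chromosome 11 and *Igf2r* (12682406 to 12769664) on chromosome 17. *H19* and *Meg3* are annotated as long non-coding RNAs and the other 8 as protein-coding genes.

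RefSeq (GRCm38.p6) gave start sites for 8 of the 10 members, namely 15 windows of the 250 bases before a start. *H19* and *Cdkn1c* had no entry. The window with the most CpG is shown for *Igf2* and *Mest*, the members with the most UMIs, and for *Meg3* and *Peg3*, whose levels moved together. CpG, the site of DNA methylation, is in capitals.
*Igf2*, chr7:142658805-142659054, minus strand: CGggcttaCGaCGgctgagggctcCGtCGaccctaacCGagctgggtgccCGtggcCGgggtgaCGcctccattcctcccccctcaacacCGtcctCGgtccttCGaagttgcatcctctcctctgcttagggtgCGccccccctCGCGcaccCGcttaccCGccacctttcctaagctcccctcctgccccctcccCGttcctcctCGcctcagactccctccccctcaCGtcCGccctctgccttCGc
*Mest*, chr6:30737800-30738049, plus strand: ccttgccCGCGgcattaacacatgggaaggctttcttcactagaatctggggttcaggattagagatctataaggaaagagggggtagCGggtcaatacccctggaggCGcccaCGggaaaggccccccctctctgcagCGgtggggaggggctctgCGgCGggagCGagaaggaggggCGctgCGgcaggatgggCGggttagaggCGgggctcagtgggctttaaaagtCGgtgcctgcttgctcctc
*Meg3*, chr12:109540746-109540995, plus strand: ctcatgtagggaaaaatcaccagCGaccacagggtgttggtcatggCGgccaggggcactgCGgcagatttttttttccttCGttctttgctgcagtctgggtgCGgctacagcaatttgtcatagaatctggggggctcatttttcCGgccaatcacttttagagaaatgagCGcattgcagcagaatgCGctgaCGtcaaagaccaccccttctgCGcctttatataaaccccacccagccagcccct
*Peg3*, chr7:6730420-6730669, minus strand: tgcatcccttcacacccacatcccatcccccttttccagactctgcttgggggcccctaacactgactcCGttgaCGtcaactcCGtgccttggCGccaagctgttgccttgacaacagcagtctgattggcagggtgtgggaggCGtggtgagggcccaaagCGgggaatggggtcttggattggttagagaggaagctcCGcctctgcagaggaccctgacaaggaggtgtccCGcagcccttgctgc
These windows held 22, 14, 10 and 8 CpG in this order, against a median of 6 over 32,851 windows of the same length. The 8-base sequence GGGGCCCC, which reads the same on both strands and belongs to the motif known for PLAGL1, was found in the *Peg3* window. It was in 1 of the 15 windows of the members and in 0.889% of all windows. The 15 windows held from 0 CpG, at a second *Meg3* start, to 40, at a *Grb10* start. Counts at the 3′ end do not show which start a transcript used, and methylation and protein binding were not measured in these cells.

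The table held 9,562 cells in 3 libraries with 3,507, 3,958 and 2,097 cells and medians of 23,651, 13,440.5 and 38,312 UMIs per cell. Neither a pool nor a time point is tied to a library or cell in the files used here, so the matrix was treated as 1 sample without a test. Intervals are 95% counting intervals and cover neither animals nor cultures, and the range over libraries is the only spread shown. Library suffix 2 was the shallowest and was the highest of the 3 for *H19* in every cluster. Of the markers, 4 of 4 arterial genes were highest in cluster 0 (728 cells), and 8 of 8 genes of adult heart capillaries were highest in cluster 1 (799 cells). Cluster 2 (5,396 cells) was endothelial without either pattern. In cluster 3 (239 cells) 8 of 8 germ cell or pluripotency genes were highest, in cluster 4 (518 cells) 7 of 8 stromal genes, in cluster 5 (1,572 cells) 5 of 5 macrophage and 5 of 5 granulocyte progenitor genes, and in cluster 6 (310 cells) 5 of 5 megakaryocyte genes. The labels name adult cardiac endothelium, but the capillary markers summed to 2.73 and 3.31 UMIs per 10,000 UMIs in clusters 0 and 2, within the 1.31 to 3.51 of clusters 3 to 6, and to 85.6 in cluster 1. In 4,336 cells a Y-linked UMI was found without *Xist* and in 3,296 cells *Xist* without a Y-linked UMI, in every cluster, although the methods name female adult hearts and give no sex for the embryos.

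The members did not share 1 pattern over the clusters. *H19*, *Igf2*, *Cdkn1c* and *Plagl1* were highest in arterial endothelial-like cluster 0, *Mest* was highest in endothelial cluster 2, and *Dlk1*, *Meg3*, *Peg3*, *Grb10* and *Igf2r* were highest in stromal-like cluster 4. For all 10 the cluster with the highest level was the same in each of the 3 libraries. The share of all genes for which this holds was not computed. Levels are UMIs per 10,000 UMIs of the cluster, and each molecule is counted once at its 3′ end whatever the length of the gene.

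**Figure D1:**
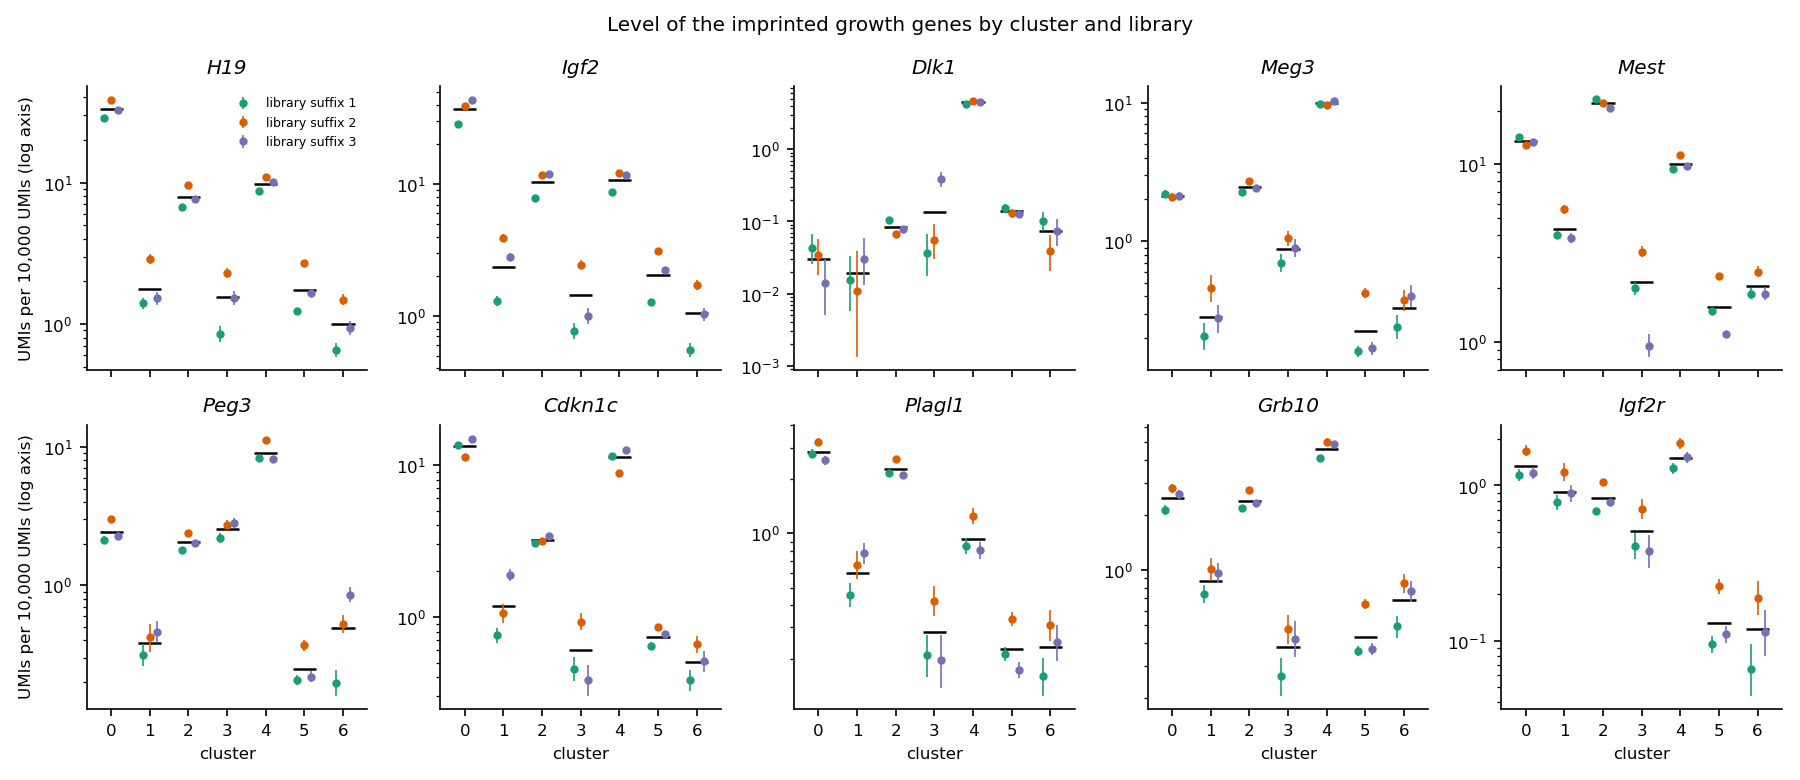
Level of each member (UMIs per 10,000 UMIs, log axis) in clusters 0 to 6. Points are the 3 libraries with 95% counting intervals, and black lines are all cells of the cluster. *H19* and *Igf2* peak in cluster 0 at 33.0 and 37.0, *Mest* in cluster 2 at 22.0 and *Dlk1* in cluster 4 at 4.47.

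*Igf2* had 37.0 UMIs per 10,000 in cluster 0 (36.7–37.3), with 28.6, 39.3 and 43.7 in the libraries of suffix 1, 2 and 3. Clusters 4 and 2 followed with 10.7 and 10.4, and clusters 1, 5, 3 and 6 had 2.35, 2.04, 1.43 and 1.06. The libraries of cluster 0 did not overlap those of any other cluster, whereas clusters 4 (8.77 to 12.1) and 2 (7.82 to 11.9) overlapped. *H19* followed the same order at the top, with 33.0 in cluster 0 (32.7–33.3; 28.6, 38.4 and 32.8 by library), 9.78 in cluster 4 and 7.92 in cluster 2. Clusters 1, 5, 3 and 6 had 1.76, 1.74, 1.55 and 1.0, and their library ranges overlapped. In cells of cluster 0 reduced to 5,000 UMIs each, the median cell held 14 *H19* and 17 *Igf2* UMIs (quartiles 9 to 22 and 11 to 26), and all 722 cells had at least 1 UMI of both. In cluster 2 the median cell held 3 and 5, and 92.7% and 97.0% of the cells had a UMI.

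There were between 0.751 and 1.08 *H19* UMIs per *Igf2* UMI in the 7 clusters, although the level of *Igf2* itself ranged 35.0-fold. The ratio differed between libraries about as much, with 0.751 to 1.0 for cluster 0 and 0.644 to 0.855 for cluster 2. *Mest* per *Igf2* ranged from 0.365 in cluster 0 to 2.10 in cluster 2, with libraries at 0.304 to 0.499 and 1.75 to 2.96. Over the 21 sums of a cluster and a library, the log2 levels of *H19* and *Igf2* had a Pearson r of 0.99, and each was the gene most like the other among all genes with at least 0.1 UMIs per 10,000. The next for both was *Mmp2*, a matrix metalloproteinase (r = 0.98 with *H19* and 0.97 with *Igf2*). The 21 sums share libraries and depth, so that r only describes likeness.

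*Cdkn1c* had 13.2 UMIs per 10,000 in cluster 0 (13.5, 11.2 and 14.7 by library) and 11.2 in cluster 4 (11.4, 8.86 and 12.5), and the libraries of these clusters overlapped. Its level was 3.20 in cluster 2 and 1.18 in cluster 1, with 0.736, 0.605 and 0.507 in clusters 5, 3 and 6. *Plagl1* was spread over both clusters 0 and 2, at 2.83 (2.77, 3.22 and 2.55) and 2.27 (2.18, 2.58 and 2.10), with overlapping libraries. In cluster 4 it reached only 0.933, the lowest level of any member there. The genes most like *Plagl1* over the 21 sums were *Lpar4*, *Chst2*, *Adgra2*, *Armcx4* and *Fam171a2* (r from 0.98 to 0.97). Those most like *Cdkn1c* were *Rcn1*, *Mfap2*, *Itm2a*, *Col5a2* and *Tox3* (r = 0.97 in each case).

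*Mest*, with 354,404 UMIs the most abundant member, had 22.0 UMIs per 10,000 in cluster 2 (21.9–22.0; 23.1, 22.0 and 20.8 by library). Next came cluster 0 with 13.5 (14.3, 12.9 and 13.3), and clusters 4 and 1 with 9.99 and 4.30. Clusters 3, 5 and 6 had 1.56 to 2.17. At 5,000 UMIs per cell 99.9% of the cells of cluster 2 had a *Mest* UMI. *Mest* was the member with the highest level in clusters 1, 2 and 6. Its 5 most similar genes included *Asb4*, an imprinted gene that lies elsewhere on chromosome 6, and *Zfp57*, which encodes a zinc finger protein that protects methylation at imprinted loci (r = 0.96 for both). The other 3 were *Tcaf1*, *Zfp423* and *Adgra2*.

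*Dlk1* was all but confined to stromal-like cluster 4, where it had 4.47 UMIs per 10,000 (4.24, 4.74 and 4.54 by library) and was found in 54.1% of cells at 5,000 UMIs. Its level in the other 6 clusters was between 0.0190 and 0.139, and 0.537% to 4.97% of cells had a UMI at 5,000 UMIs. *Meg3*, its neighbour, was also highest in cluster 4, at 9.89 (9.73, 9.54 and 10.3), but kept 2.13 and 2.45 in clusters 0 and 2, where *Dlk1* had 0.0302 and 0.0835. *Meg3* thus had a UMI in 44.7% and 54.5% of the cells of these clusters, and *Dlk1* in 1.11% and 2.77%. *Peg3* had 8.99 in cluster 4 (8.31, 11.3 and 8.18). Its levels in clusters 3, 0 and 2 were 2.56, 2.45 and 2.05, with overlapping libraries. *Meg3* and *Peg3* were like each other over the 21 sums (r = 0.94).

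*Grb10* had 4.58 UMIs per 10,000 in cluster 4 (4.06, 5.01 and 4.84) and was near equal in clusters 0 and 2, at 2.49 and 2.39. *Igf2r* had 1.51 in cluster 4 (1.29, 1.87 and 1.52) and 1.34 in cluster 0 (1.16, 1.68 and 1.21), against 0.914 and 0.828 in clusters 1 and 2. The libraries of clusters 4 and 0 overlapped, as did those of clusters 0 and 1 and of clusters 1 and 2, but the order of these clusters was the same within each library. The genes most like *Igf2r* were *Rbfox2*, *Dnajc10*, *Cntln*, *Ptms* and *Zfp521* (r = 0.97 in each case), and those most like *Grb10* were *Myh10*, *Ttc3*, *Mlf2*, *Rarb* and *Scarf2*. For *Meg3* they were *Fign*, *Mdk*, the imprinted gene *Zdbf2*, *Pex19* and *H2afy2*, and for *Peg3* *Igdcc3*, *Acvr2b*, *H1fx*, *Tpbg* and *Enah*. For *Dlk1* they were *Cadm1*, *Gpc3*, *Col1a1*, *Crabp2* and *Col1a2* (r from 0.95 to 0.93), among them the chains of type I collagen.

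Cluster 2 held less *H19*, *Igf2* and *Cdkn1c* than cluster 0, whereas *Mest* was higher and *Igf2r* lower by less than 2-fold and 4 others were near equal. *H19* was 4.17-fold lower (log2 ratio −2.06, −2.08 to −2.04), *Igf2* 3.54-fold lower (−1.82, −1.84 to −1.81) and *Cdkn1c* 4.13-fold lower (−2.05, −2.07 to −2.02). By library the log2 ratios of these 3 genes ran from −2.15 to −1.75. A gene was counted as past the fold when it differed at least 2-fold with the same direction in each library and had at least 0.1 UMIs per 10,000 in the higher cluster. By this rule 3 of the 9 members above that level were lower in cluster 2, against 9.15% of all genes, and 0 of 9 were higher, against 2.77%. *Mest* was 1.63-fold higher in cluster 2 (log2 ratio 0.70, by library 0.65 to 0.77) and *Igf2r* 1.61-fold lower (−0.69). *Meg3*, *Peg3*, *Plagl1* and *Grb10* had log2 ratios between −0.32 and 0.20. *Dlk1* was below the minimum level in both clusters. The median log2 ratio was −0.32 over the members and −0.09 over all 8,676 genes above the minimum. The arterial genes *Gja5* and *Gja4*, which encode connexins, had 5.09 and 13.9 UMIs per 10,000 in cluster 0 and 0.0599 and 0.905 in cluster 2. The cell cycle list summed to 9.95 and 15.7. Their part in the result was not tested.

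**Figure D2:**
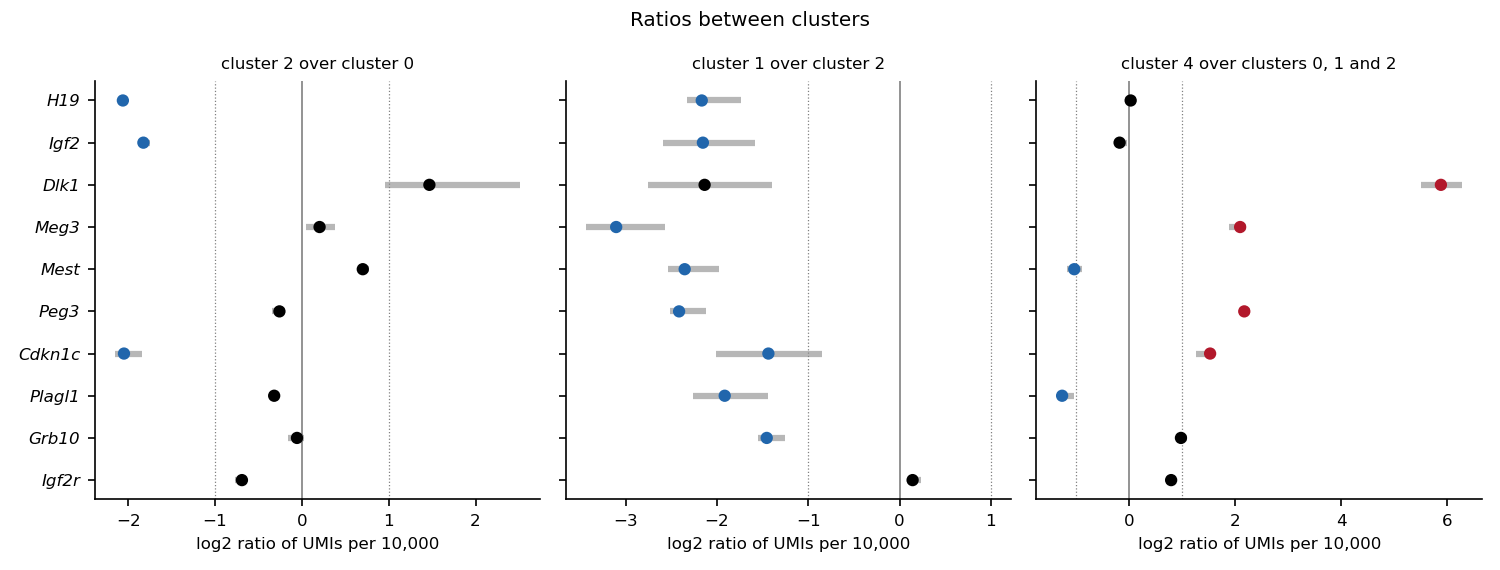
Log2 ratio of the members' levels for cluster 2 over cluster 0, cluster 1 over cluster 2 and cluster 4 over clusters 0, 1 and 2 together. Points are sums of all libraries, grey bars run from the lowest to the highest library, dotted lines mark 2-fold, and red or blue points are past the fold. *H19*, *Igf2* and *Cdkn1c* are lower in cluster 2 than in cluster 0, and all members but *Igf2r* lie left of 0 in cluster 1 over cluster 2.

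Cluster 1, which carried the adult capillary genes, had the lowest levels among the endothelial clusters for 9 of the 10 members. The exception was *Igf2r*, with 0.914 UMIs per 10,000 against 0.828 in cluster 2. Among the 9, *Dlk1* was below the minimum level, and its log2 ratio of cluster 1 over cluster 0 ran from −1.66 to 1.11 by library. Against cluster 0, 8 of 9 members above the minimum level were past the fold and lower, against 11.1% of all genes. The folds ran from 2.85 for *Grb10* (log2 ratio −1.51, −1.63 to −1.39) to 18.7 for *H19* (−4.23, −4.30 to −4.15). Against cluster 2, 8 of 9 were again lower, against 10.4% of all genes. Here the folds ran from 2.71 for *Cdkn1c* (−1.44; −2.01 to −0.85 by library) to 8.59 for *Meg3* (−3.10). The median log2 ratios of the members were −2.67 and −2.15, and those of all genes were −0.01 and 0.10. The fatty acid carrier *Fabp4* had 65.0 UMIs per 10,000 in cluster 1 and 0.952 and 1.33 in clusters 0 and 2, and the cell cycle list summed to 3.37. Macrophage markers summed to 3.12 in cluster 1 (0.744 to 4.41 by library) and to 0.0890 and 0.0766 in clusters 0 and 2. The part of these values in the result was not tested.

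The cells of cluster 1 were shallower, with a median of 7,875 UMIs against 14,061 and 22,493 in clusters 0 and 2. At 5,000 UMIs per cell *H19* was found in 30.5% of cells of cluster 1 (27.2–33.9), *Igf2* in 34.2%, *Mest* in 57.7%, *Cdkn1c* in 25.8% and *Meg3* in 7.38%. As deposited these shares were 40.1%, 42.7%, 68.2%, 36.7% and 10.4%. In cluster 5, which carried blood cell markers, *H19* was found in 39.4% of cells at the common depth (24.2% to 58.8% by library). The endothelial cadherin *Cdh5* was found in 24.3%. The share of cells with *H19* or *Igf2* in cluster 1 was not above that in cluster 5. Single cells held up to 45 and 54 UMIs in cluster 1 against 29 and 26 in cluster 5. The part of free RNA in these shares was not tested. In pooled sums *Mest* (4.30 against 1.56 to 2.17 UMIs per 10,000 in clusters 3, 5 and 6), *Igf2r* (0.914 against 0.119 to 0.506), *Plagl1* (0.603 against 0.228 to 0.283), *Cdkn1c* (1.18 against 0.507 to 0.736), *Grb10* (0.873 against 0.381 to 0.684) and *Igf2* (2.35 against 1.06 to 2.04) were higher in cluster 1 than in these 3 clusters. Of these, the libraries of *Mest*, *Igf2r* and *Plagl1* did not overlap those of clusters 3, 5 and 6, and those of *Cdkn1c*, *Grb10* and *Igf2* did. Compared within each library, cluster 1 was above clusters 3, 5 and 6 for all of these genes. For *Igf2* in the library of suffix 1, clusters 1 and 5 were near equal (1.30 and 1.29).

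Within cluster 1 the cells with a Y-linked UMI and no *Xist* (443) and those with *Xist* and no Y-linked UMI (175) differed in several members. *H19* had 1.17 and 2.86 UMIs per 10,000 in the 2 sets, *Igf2* 1.62 and 3.73, *Cdkn1c* 0.762 and 2.79, and *Mest*, in the other direction, 4.18 and 2.65. *Fabp4* had 51.4 and 129. In cluster 0 the same 2 sets (326 and 273 cells) had 35.9 and 30.8 for *H19*, and in cluster 2 (2,356 and 1,960 cells) 7.68 and 8.20. The share of cells with *Xist* and no Y-linked UMI in cluster 1 ran from 13.5% to 35.6% over the libraries, and the sets are pooled over libraries and so differ in library make-up. They were made after the levels had been seen, cells with few UMIs can miss both markers, and the median depth of the sets in cluster 1 was 9,118 and 6,264 UMIs. Sex, donor and embryo of origin cannot be told apart with these markers.

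Stromal-like cluster 4 differed from the endothelial clusters in both directions. Against clusters 0, 1 and 2 together, 4 of the 10 members were past the fold and higher, against 12.2% of all genes, and 2 of 10 were lower, against 7.47%. *Dlk1* was 58.8-fold higher (log2 ratio 5.88, 5.79 to 5.97), *Peg3* 4.51-fold (2.17), *Meg3* 4.28-fold (2.10) and *Cdkn1c* 2.89-fold (1.53). *Mest* was 2.04-fold lower (−1.03, by library −1.17 to −0.88) and *Plagl1* 2.39-fold lower (−1.26, by library −1.36 to −1.04). The single clusters did not all follow. *Cdkn1c* was lower in cluster 4 (11.2) than in cluster 0 (13.2), and so in each library. *Mest* and *Plagl1* were higher in cluster 4 (9.99 and 0.933) than in cluster 1 (4.30 and 0.603). *H19* had 9.78 and 9.55 UMIs per 10,000 and *Igf2* 10.7 and 12.1, so that the growth factor and its neighbour were near equal in the 2 sets. Among the single endothelial clusters *H19* ran from 1.76 in cluster 1 to 33.0 in cluster 0, and *Igf2* from 2.35 to 37.0. *Grb10* was 1.97-fold and *Igf2r* 1.74-fold higher in cluster 4 than in clusters 0, 1 and 2 together. Without the library of suffix 1 *Mest* was no longer past the fold, and 1 member and not 2 was lower. The stromal list summed to 21.2 in cluster 4 and to 0.325, 2.73 and 0.168 in clusters 0, 1 and 2.

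Germ cell or pluripotent-like cluster 3 held little of most members, with *Peg3* as the exception. In it 7 of the 10 members were past the fold and lower than in clusters 0, 1 and 2 together, against 24.3% of all genes. Most UMIs of that sum came from cluster 2. Against cluster 1 alone, *Meg3* was higher in cluster 3 (0.876 against 0.285 UMIs per 10,000), and so in each library. *H19* was near equal in these 2 clusters (1.55 and 1.76). *Mest* was 9.41-fold lower (log2 ratio −3.23), *Igf2* 8.45-fold (−3.08) and *Plagl1* 7.87-fold (−2.98). *Peg3* had 2.56 UMIs per 10,000 (2.19, 2.75 and 2.83 by library) against 1.99 in clusters 0, 1 and 2, and was found in 66.1% of cells at 5,000 UMIs (59.7–72.1), the highest share of any member in this cluster. *Dlk1* had 0.136, of which the library of suffix 3 had 0.389 and the others 0.0370 and 0.0547.

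In clusters 5 and 6 the members other than *Dlk1* were at about the same share of their endothelial level as endothelial genes were. In cluster 5, 9 of the 10 members were past the fold and lower than in clusters 0, 1 and 2 together, against 16.6% of all genes, and in cluster 6, 9 of 9 above the minimum level, against 18.8%. Against cluster 1 alone, *Meg3* (0.331 against 0.285) and *Peg3* (0.492 against 0.384) were higher in cluster 6, with overlapping libraries. Without *Dlk1*, the members of cluster 5 were at 7.67% (*Mest*) to 18.99% (*Cdkn1c*) of their level in clusters 0, 1 and 2. The 8 endothelial genes were at 7.81% to 22.3%. Cells had been sorted by CD31 (*Pecam1*) and VE-Cad (*Cdh5*), so these genes do not mark absent expression. In cluster 6 the members without *Dlk1* ran from 8.74% (*Igf2*) to 29.5% (*Grb10*), and endothelial genes from 8.74% to 27.3%. By library, *Grb10* in cluster 6 was at 23.8%, 31.8% and 33.8% and the endothelial gene *Tie1* at 26.4%, 31.6% and 23.7%, while *Peg3* reached 43.8% in the library of suffix 3. Free RNA was not measured, and its part in these levels was not tested. Single cells reduced to 5,000 UMIs held up to 29 *H19* UMIs in cluster 5 and up to 45 *Mest* UMIs in cluster 6. *Dlk1* had 0.139 in cluster 5, which was 1.83-fold its level in clusters 0, 1 and 2 (0.0760; log2 ratio 0.87, by library 0.74 to 1.09), and 0.0733 in cluster 6. Between clusters 5 and 6, 0 of 10 members were past the fold, against 9.71% of all genes higher and 8.43% lower in cluster 5.

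**Figure D3:**
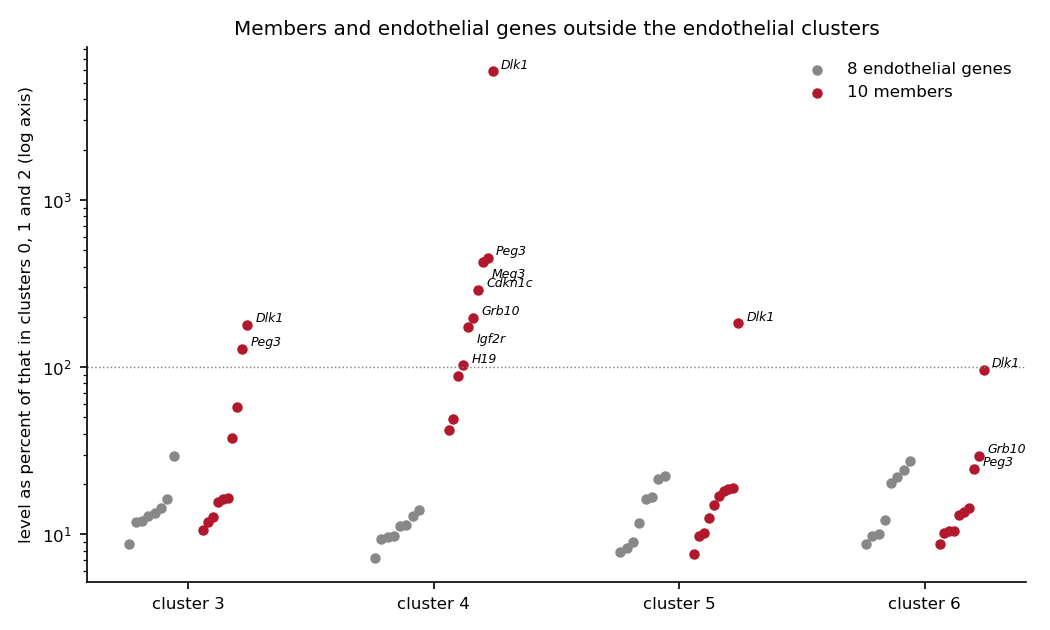
Level of the 10 members (red) and 8 endothelial genes (grey) in clusters 3 to 6 as a percent of their level in clusters 0, 1 and 2 together (log axis, each point 1 gene). In cluster 5 all members except *Dlk1* lie at 7.67% to 18.99%, beside endothelial genes at 7.81% to 22.3%, and in cluster 4 members reach from 41.8% to 5883%.

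From cell to cell, *H19* and *Igf2* moved together in both clusters 0 and 2. Pearson's r of ln(1 + counts per 10,000) was taken after each cell had been reduced to 5,000 UMIs, with values centred within each library. Genes had to be found in at least 5% of the cells, which 9 members were in both clusters and *Dlk1* in neither. In cluster 0 (722 cells) *H19* and *Igf2* had r = 0.46 (0.41 to 0.50 by library). In cluster 2 (5,377 cells) they had r = 0.34 (0.33 to 0.35). In both clusters *Igf2* was the gene with the highest r with *H19*, and *H19* the gene with the highest r with *Igf2*, among 8,278 and 7,913 genes. At full depth r was 0.52 and 0.50. No p is given, since cells of a library share its pool and its depth.

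Of the 36 pairs of members, 9 had r of at least 0.1 in cluster 0, against 0.985% of all pairs of genes, and 5 in cluster 2, against 0.0772%. Pairs of genes that were found in many cells reached this r more often. Among genes found at least as often as the least detected member (44.7% of cells for *Meg3* in cluster 0 and 35.5% for *Igf2r* in cluster 2), the shares were 4.89% and 0.805%. The median r of the member pairs was 0.04 in both clusters, and that of all pairs was 0.00. At full depth 13 and 15 pairs reached 0.1 in clusters 0 and 2.

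**Figure D4:**
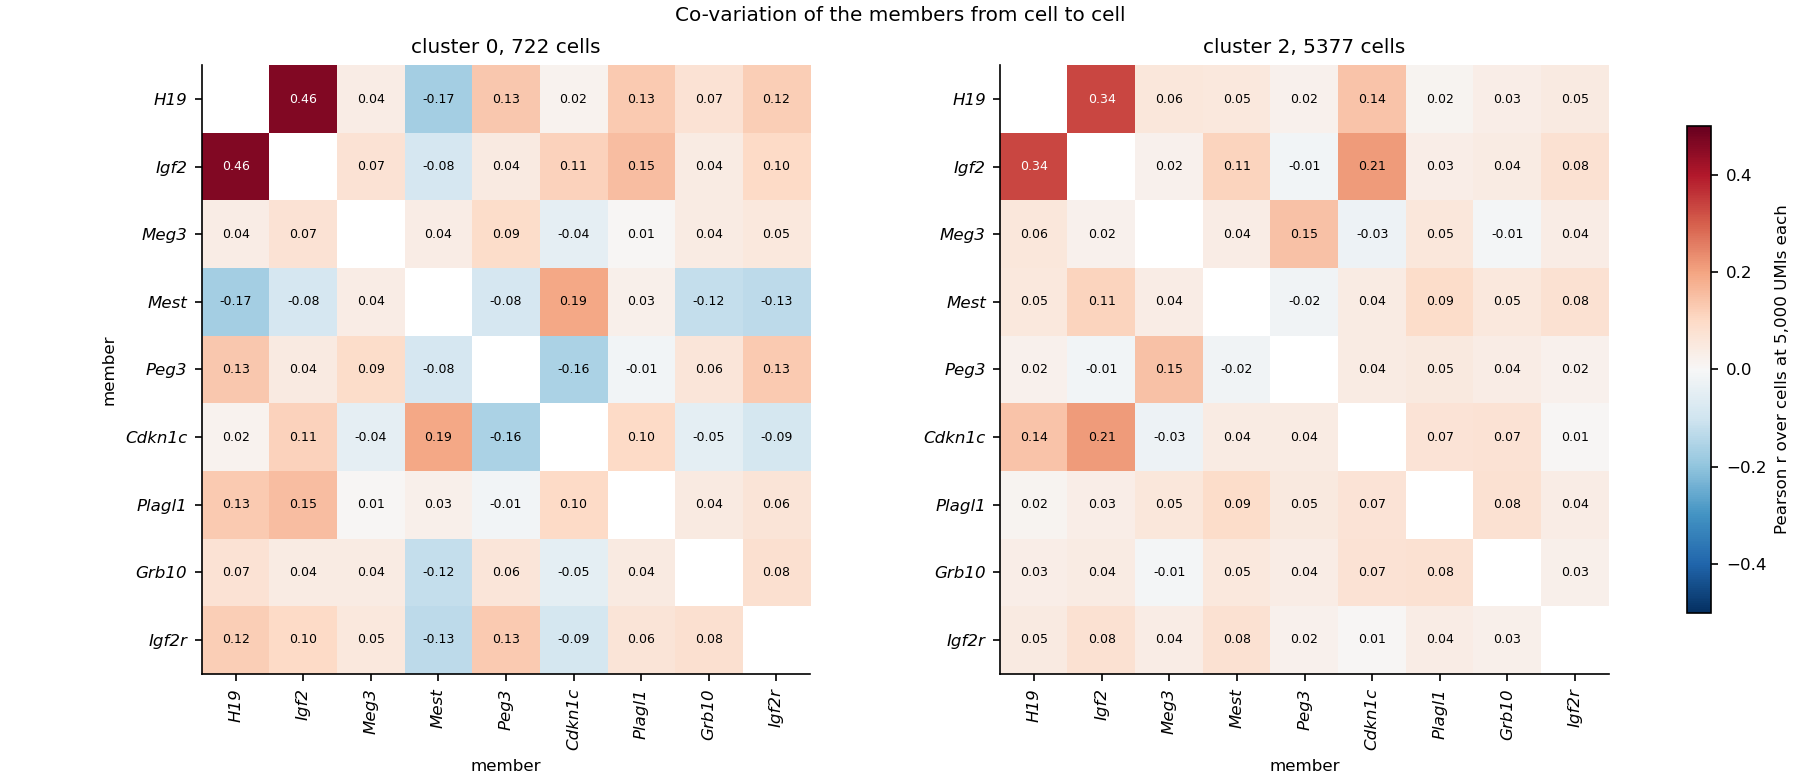
Pearson r of each pair of 9 members over cells reduced to 5,000 UMIs, in cluster 0 (722 cells) and cluster 2 (5,377 cells). Red is positive and blue negative. *H19* with *Igf2* stands at 0.46 and 0.34, and *Mest* is negative with *H19*, *Grb10* and *Igf2r* in cluster 0 but not in cluster 2.

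In cluster 2, *Cdkn1c* went with *Igf2* (r = 0.21, 0.19 to 0.24 by library) and with *H19* (0.14, 0.12 to 0.18). *Meg3* went with *Peg3* (0.15, 0.12 to 0.19), and *Mest* with *Igf2* (0.11, 0.09 to 0.14). Of the cells with a *Peg3* UMI, 60.1% had a *Meg3* UMI (58.2–62.0), and of those without one 49.2% had (47.3–51.1). No pair of members reached −0.1 in cluster 2.

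In cluster 0, *Mest* ran with *Cdkn1c* (r = 0.19, 0.15 to 0.26 by library) and against *H19* (−0.17, −0.19 to −0.14). *Mest* was also negative with *Igf2r* (−0.13, −0.16 to −0.11) and *Grb10* (−0.12, −0.13 to −0.11), and *Peg3* with *Cdkn1c* (−0.16, −0.19 to −0.12). These 4 pairs were at or below −0.1, as were 0.55% of all pairs, and each was negative in all 3 libraries. For negative r the share among genes found as often as the members was not computed. *Plagl1* had r = 0.15 with *Igf2* and 0.13 with *H19*, and *Peg3* had 0.13 with both *H19* and *Igf2r*. Between *H19* and *Cdkn1c* r was 0.02 in cluster 0, where by library it ran from −0.04 to 0.07.

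The genes with the highest r with the growth members in cluster 2 were partly arterial. *Gja4* was the first with *Cdkn1c* (0.35), ahead of *Hey1* (0.24), a transcription factor downstream of Notch, and was the second with *H19* (0.28) and *Igf2* (0.26). When cells of cluster 2 with a UMI of an arterial gene were left out, an alternative chosen after seeing the data that kept 931 cells, r was 0.24 for *H19* with *Igf2* and 0.12 for *Igf2* with *Cdkn1c*. *Meg3* and *Peg3* had 0.18 in these cells. The genes with the lowest r with *Igf2* in cluster 2 included those of a ribosomal protein and a nucleolar protein. They were *Rps2* (−0.29), *Mif* (−0.27), *Eif5a* (−0.27), *Npm1* (−0.26) and *Ran* (−0.26). With the summed cell cycle list r was −0.23 for *Igf2*, −0.19 for *Cdkn1c*, −0.15 for *H19* and −0.06 for *Mest*.

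In cluster 0 the genes with the highest r with *Igf2* after *H19* were *Pecam1* (0.34), *Nrp1* (0.34), *Fstl1* (0.33) and *Vwf* (0.33), of which *Pecam1* and *Vwf* are endothelial proteins. With *Mest* they were *Actg1* (0.37), *Igfbp3* (0.37), *Actb* (0.35), *Slc2a1* (0.34) and *Gnai2* (0.34), and with *Cdkn1c* *Slc2a1* (0.39), *Nudt4* (0.34), *Tmem255a* (0.33), *Igfbp3* (0.31) and *Gnai2* (0.30). The glucose transporter gene *Slc2a1*, the IGF-binding protein gene *Igfbp3* and *Gnai2* were in both lists. *Eln*, which encodes elastin, was among the 5 genes with the lowest r with both *Mest* (−0.35) and *Cdkn1c* (−0.28). *Igf2* had r = −0.36 with the summed ribosomal protein genes and −0.23 with the cell cycle list in cluster 0.

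When the cells of each library were ordered by *Igf2* and split into 5 groups of about equal size, the median *H19* count per 5,000 UMIs was 9, 12, 15, 17 and 24 in cluster 0 and 2, 3, 3, 4 and 6 in cluster 2. The quartiles of neighbouring groups overlapped, as the plot of members in cells ordered by *Igf2* shows. Mean *Cdkn1c* was 1.19 in the lowest and 2.97 in the highest group of cluster 2, and mean *Mest* 10.4 and 12.3. Cells with more *Igf2* were shallower before the reduction, with medians of 20,709 UMIs in the lowest and 11,938 in the highest group of cluster 0, and 27,666 and 16,437 in cluster 2. The part of depth in this order was not tested.

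**Figure D5:**
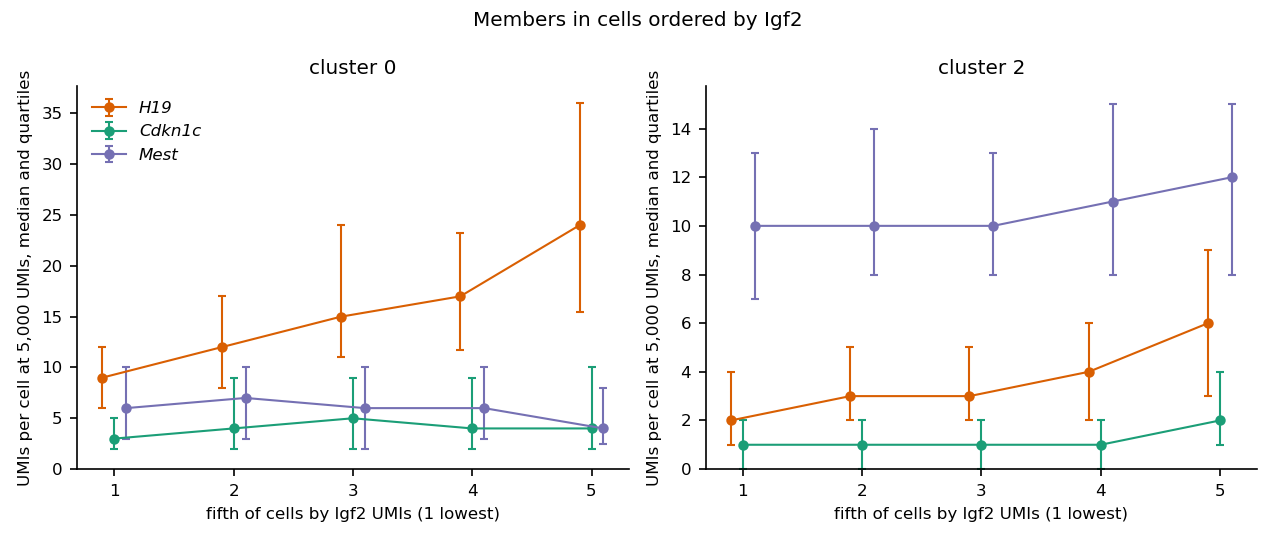
*H19*, *Cdkn1c* and *Mest* UMIs per cell after reduction to 5,000 UMIs (medians with quartiles) in 5 groups of cells of cluster 0 and cluster 2 ordered by *Igf2* within library. Median *H19* goes from 9 to 24 (cluster 0) or from 2 to 6 (cluster 2), while median *Mest* is 4 to 7 and 10 to 12.

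Other imprinted genes, named in a list of 35 of which 33 were found, split in a similar way. *Rian* and *Peg13* were not analysed here. Against cluster 0, 10 of the 18 above the minimum level were past the fold and lower in cluster 1, against 11.1% of all genes, with a median log2 ratio of −1.11. They were *Peg10*, *Sgce*, *Ndn*, *Nnat*, *Kcnq1ot1*, *Slc38a4*, *Snrpn*, *Peg12*, *Asb4* and *Zdbf2*. Cluster 4 held the highest level of 16 of the 33, some of them below the minimum level. How many of all genes peak in cluster 4 was not computed. Compared with clusters 0, 1 and 2 together, 22 of the 33 were above the minimum level. Of these 22, 7 were past the fold and higher in cluster 4 and 0 were lower. Among all genes the shares were 12.2% and 7.47%. The levels of *Zdbf2* in clusters 0, 2 and 4 were 0.214, 0.243 and 0.614 UMIs per 10,000. *Gnas*, for the stimulatory G protein, was the most abundant, with 21.9, 13.8 and 25.7 in clusters 0, 1 and 2. The non-coding *Airn*, antisense to *Igf2r*, had 0.317, 0.279 and 0.184, and reads of the pair can be told apart only by strand.

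The partners of *Igf2* did not all follow it. *Igf1r*, its signalling receptor, had 0.713, 0.454, 0.456 and 0.911 UMIs per 10,000 in clusters 0, 1, 2 and 4, and *Igf1* had 0.536, 0.660, 0.997 and 0.738. Of the IGF-binding protein genes, *Igfbp2* and *Igfbp4* were highest in cluster 0, at 2.92 and 12.9, and lower in cluster 1, at 0.106 and 2.26. *Igfbp3* and *Igfbp7* went the other way, with 7.06 and 14.3 in cluster 1 against 3.59 and 0.789 in cluster 0. The RNA-binding genes *Igf2bp1*, *Igf2bp2* and *Igf2bp3* had 2.07, 1.12 and 0.895 in cluster 0 and 0.290, 0.214 and 0.204 in cluster 1. In all, 5 of 11 genes of this list were past the fold and lower in cluster 1 than in cluster 0, against 11.1% of all genes, and 2 of 11 were higher, against 14.1%.

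Of 13 genes listed for a part in methylation at imprints, 11 were above the minimum level in the comparison of clusters 1 and 0. Of these 11, 5 were past the fold and lower in cluster 1, against 11.1% of all genes. They were *Zfp57*, *Dnmt3a*, *Dnmt3b*, *Uhrf1* and *Tet1*. *Zfp57* had 0.590, 0.200 and 0.473 UMIs per 10,000 in clusters 0, 1 and 2 and at most 0.0928 in clusters 3, 5 and 6. *Ctcf*, whose protein insulates *Igf2* from its enhancers on the maternal allele, was nearly level, at 1.43, 1.19 and 1.51. *Dnmt1*, the maintenance methyltransferase, had 1.05 in cluster 0 and 0.529 in cluster 1.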

How the data were processed

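The libraries were made with the 3′ v3 kit of 10x Genomics. The authors deposited raw UMI counts per gene and cell after Cell Ranger (3.1.0) and Seurat (3.1.5), as the submitters' processing notes name them, with a cluster for each cell. The gene annotation of the alignment was not given in the sources used here. A deposited table of normalised values and the map coordinates were not used. Of 27,998 genes 27,645 had a name in GENCODE M21, and counts of 4 names held by more than 1 identifier were summed. Cells were kept as deposited, with 252,339,042 UMIs and a median of 21,225.5 per cell. Across clusters 0 to 6 the median ran from 7,875 to 36,065.5. A total of 13 barcodes occurred in more than 1 library. Scrublet in scanpy (1.11.5) marked 8 cells, 6 in cluster 5 and 2 in cluster 6, too few to be taken as working, so no doublet was removed.

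Levels are summed counts per 10,000 UMIs with exact Poisson intervals. Ratios have exact conditional intervals, and shares have exact binomial (Clopper-Pearson) intervals, all at 95% and for counting error only. Shares and r used 5,000 UMIs drawn without replacement per cell and left out 90 shallower cells. A ratio was past the fold at 2-fold, in 1 direction in all 3 libraries, with at least 0.1 UMIs per 10,000 in the higher group. Members and gene lists were chosen with earlier results of these data known. The named genes were all members, the 5 genes most like each over the 21 sums of a cluster and a library, the 5 with the highest r within clusters 0 and 2, and listed genes past the fold. The genes with the lowest r, the 83 ribosomal protein genes and the share of pairs among well-detected genes were added after seeing the data, as were examples from the lists. Scripts were tested on simulated data and run with scipy 1.17.1, numpy 2.4.6, pandas 2.3.3 and matplotlib 3.10.9 under Python 3.11.15. No p-value was computed, because the clusters were drawn from the same counts and the cells could not be assigned to pools or time points.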

Additional observations from a re-analysis of the deposited data

How the results depend on the processing

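No paired analysis was possible because no result comes from a test: the clusters were drawn from the counts compared, and ratios are given within each library instead. Counts of members past the fold moved by over 1.5 times under these alternatives. Without the library of suffix 1, and in cells reduced to 5,000 UMIs, 1 member was lower in cluster 4 than in clusters 0, 1 and 2, against 2. Leaving out each library in turn gave 0 to 1 members higher and 0 to 1 lower in cluster 5 than in cluster 6, against 0, where the member gained was *Dlk1* or *Igf2* when higher and *Peg3* when lower. At 1.5-fold 3 members were higher and 1 was lower in cluster 5 than in cluster 6, 1 was higher in cluster 5 than in clusters 0, 1 and 2, and 1 was higher in cluster 2 than in cluster 0. The mean of the cells' counts per 10,000 and the reduction to 5,000 UMIs each gave 1 member higher in cluster 5 than in clusters 0, 1 and 2, and no minimum level gave 1 higher in cluster 2 than in cluster 0. At full depth 15 pairs of members and not 5 reached an r of 0.1 in cluster 2. No count moved past 1.5 times under the other 180 combinations of a count and an alternative. Of the log2 ratios 305 moved by more than their counting interval and 335 did not, over all alternatives, and none of those past the fold changed sign. The cause of these shifts was not tested.

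The limits are that 3 libraries stand for 3 pools of all times, so that no value separates fresh from cultured cells, that free RNA was not measured, and that the interval of a level covers counting alone. The shallow cells of cluster 1 limit the shares of *Meg3*, *Peg3* and *Plagl1*. Fewer cells of a kind and less RNA per cell are separated here only by cluster.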

Other observations

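Germ cell or pluripotent-like cluster 3 held several imprinted genes at their highest level. *Phlda2*, which restrains placental growth, had 3.37 UMIs per 10,000 there and at most 0.102 in the other clusters. *Snrpn* had 0.964 against at most 0.420, and *Sfmbt2* 0.203 against at most 0.0521. Among the genes listed for a part in methylation at imprints, *Dppa3*, which encodes the oocyte factor STELLA, had 9.61 in cluster 3 and at most 0.0956 elsewhere. *Dppa3* is also in the list of germ cell or pluripotency genes by which cluster 3 was named, so its level there is not a separate result. In cluster 3 *Trim28* had 3.95 and *Tet1* 1.02. The members *Mest* and *Igf2*, as reported above, were 9.41-fold and 8.45-fold lower in this cluster than in clusters 0, 1 and 2.

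A list of 6 fetal RNA-binding and growth genes held *Lin28a*, *Lin28b*, *Igf2bp1*, *Igf2bp3*, *Hmga2* and *Afp*. Of these, *Igf2bp1* and *Igf2bp3* were already given above with the partners of *Igf2*. The list summed to 7.94, 1.11 and 7.09 UMIs per 10,000 in clusters 0, 1 and 2, and cluster 4 held the highest sum. Of its 4 genes above the minimum level, 4 were past the fold and lower in cluster 1 than in cluster 0, against 11.1% of all genes. *Igf2bp1* and *Igf2bp3* are among these 4. Erythroid genes summed to 7.90 (0.471 to 24.7 by library), 5.65 (0.511 to 16.9) and 0.601 (0.246 to 0.816) in clusters 0, 1 and 2, and these libraries overlapped. In clusters 5 and 6 they summed to 22.5 (1.01 to 37.0) and 33.4 (3.15 to 50.6). Cardiomyocyte genes summed to at most 0.348 outside clusters 4 (3.30) and 6 (0.774). These differences were not tested.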
